A study of Rattus norvegicus with 32 samples.

Results

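Transcripts of 10 circadian clock genes were followed across the diet groups in rat hippocampus: Clock, Arntl, Per1, Per2, Per3, Cry1, Cry2, Nr1d1, Nr1d2 and Dbp. They were chosen by gene symbol from the 32883 genes of the count tables, and all 10 had enough reads to be tested in every comparison. Hippocampi came from 32 Sprague-Dawley rats at 65 days of age, with 4 rats in each of 4 diet groups per sex. The dams of the iron-sufficient (IS) rats ate an iron-sufficient diet, and the dams of the formerly iron-deficient (FID) rats ate an iron-deficient diet from early gestation through the first postnatal week. The ISch and FIDch groups had dams on the same diets that also received extra choline in later gestation. The labels give the diets of the FID and FIDch rats as ID and IDch; all rats were on an iron-sufficient diet as adults. Male libraries formed sequencing batch I and female libraries batch II, with different RNA kits, so sex, batch and kit cannot be told apart and every diet comparison was made within a sex. The clock time at which each hippocampus was collected is not given in the sources used here, and its part in any difference was not tested.

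The circadian clock is a transcriptional feedback loop that most cells run with a period of about a day. CLOCK and BMAL1 (the product of Arntl) pair and activate genes through E-box elements, the PER and CRY proteins accumulate and repress that pair, and the REV-ERB receptors (Nr1d1 and Nr1d2) repress Arntl in a second loop. Dbp, an output of the loop, encodes an activator that binds D-box elements, which Per genes carry. In hippocampus many of these transcripts, though not all to the same degree, cycle over the day under the lead of the suprachiasmatic nucleus. Per1 is in addition switched on quickly by neuronal activity and by glucocorticoids.

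Total counts ran from 3515806 to 9517503 per male library (median 8007907) and from 18439999 to 26616318 per female library. Markers of hippocampal neurons (8 genes) summed to 1075 to 1588 CPM, the reads of a gene scaled to a common library size, in every library of both sexes, whereas the 6 genes found of 7 listed for the suprachiasmatic nucleus summed to 20.15 to 37.99 CPM. Of these Avp, Lhx1, Six6 and Prok2 never exceeded 10 counts, and Vip, which cortical interneurons also express, and Rgs16 reached 475 and 296 counts. Markers of choroid plexus summed to 408.3 CPM in 1 male FID library and to at most 18.3 CPM in any female library, with Otx2 at 0 in all. Male ISch replicates 1 and 2 and male FIDch replicate 2 carry column names of another form than the other male libraries, FIDch replicate 2 also has the smallest total, and the male comparisons with these groups were repeated without them, which leaves 2 ISch and 3 FIDch rats. In whole tissue, fewer cells of a type and less RNA per cell cannot be told apart.

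Promoter sequence, 250 bases up to the transcription start, was taken from RefSeq (build GRCr8) for the 9 members that have an entry, in 11 windows. Cry1 has none in the table used. Shown here are the windows of the 3 Per genes and of Arntl, the target of the REV-ERB loop (named Bmal1 in RefSeq), each 5′ to 3′ on the gene's strand. Each Per gene met the unadjusted criterion given below in at least 1 diet comparison, Per3 in females only. Capitals mark a match to a clock element on either strand.
Per1 (chr10:54304126-54304375, plus strand): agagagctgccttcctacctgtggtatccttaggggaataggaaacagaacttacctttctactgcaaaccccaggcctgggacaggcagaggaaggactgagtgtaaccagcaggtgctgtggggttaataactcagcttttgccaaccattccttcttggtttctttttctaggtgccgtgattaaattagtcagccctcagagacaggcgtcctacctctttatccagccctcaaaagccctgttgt
Per2 (chr9:99496994-99497243, minus strand): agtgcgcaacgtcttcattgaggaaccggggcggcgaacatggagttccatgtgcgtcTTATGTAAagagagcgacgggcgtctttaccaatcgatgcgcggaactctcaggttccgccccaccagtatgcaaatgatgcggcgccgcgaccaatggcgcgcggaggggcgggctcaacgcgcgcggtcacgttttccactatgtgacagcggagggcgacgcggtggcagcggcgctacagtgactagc
Per3 (chr5:166777801-166778050, minus strand): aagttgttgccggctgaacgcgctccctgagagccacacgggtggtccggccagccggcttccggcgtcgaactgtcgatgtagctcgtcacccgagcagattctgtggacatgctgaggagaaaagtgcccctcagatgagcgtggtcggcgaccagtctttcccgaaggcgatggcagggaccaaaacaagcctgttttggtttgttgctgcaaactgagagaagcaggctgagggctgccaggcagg
Arntl (chr1:176766078-176766327, plus strand): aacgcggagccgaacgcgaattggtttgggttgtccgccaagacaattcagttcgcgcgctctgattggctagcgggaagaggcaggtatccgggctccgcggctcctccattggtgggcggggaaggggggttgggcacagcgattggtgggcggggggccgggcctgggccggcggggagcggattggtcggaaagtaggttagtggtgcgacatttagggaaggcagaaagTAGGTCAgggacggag
The capitals in Per2 are the D-box TTATGTAA, with its first base at -192 from the start, an element held by 0.828% of 33469 rat windows of this length. In Arntl they are the RORE half-site TAGGTCA at -16, found in 2.26% of windows. The E-box CACGTG was present only in the window of the second start of Nr1d1, at -191, against 5.59% of windows. The windows of Per1 and Per3 held none of the letters searched, which also included the D-box TTACGTAA, the half-site TGGGTCA and the cyclic AMP response element TGACGTCA (0.108%, 3.44% and 1.59% of windows). A match of letters is a description of the window, and the absence of one says nothing about binding elsewhere.

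Levels are given as CPM after TMM scaling of the library totals, and are compared within a gene only, since no gene lengths were used. Variation between rats of a group differed between members. The pooled within-group SD of log2 CPM was smallest for Cry2, at 0.069 in males and 0.0696 in females, below the median over all genes (0.161 and 0.136). Cry1, with the fewest reads of the members (31 to 118 counts per male library), had SDs of 0.224 and 0.237, and Dbp had 0.179 and 0.217. Per3 was the member whose spread differed most by sex, with an SD of 0.245 in males and 0.0778 in females. These SDs set what a group of 4 rats can resolve.

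**Figure D1:**
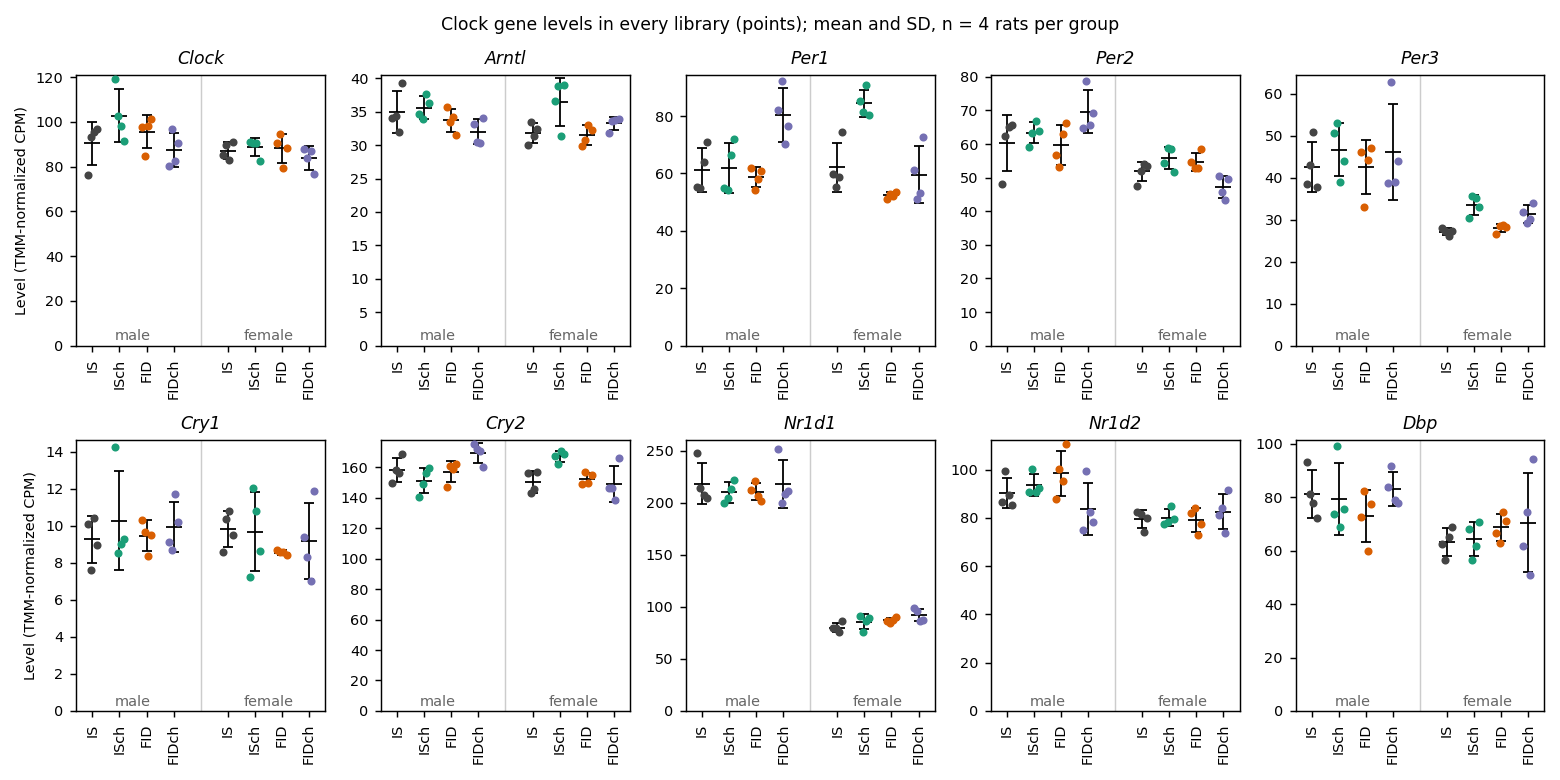
TMM-normalized CPM (y axis, from 0) of each of the 10 clock genes in every library, by diet group and sex (x axis). Points are rats, and bars give the mean and SD of 4 rats. Per1 is highest in FIDch among males and in ISch among females, and Nr1d1 lies at 199.5 to 251.5 CPM in males and at 75.48 to 98.4 CPM in females.

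A comparison called a gene when the absolute log2 fold change was over 0.2 with an unadjusted p under 0.05, the criterion of the study, in edgeR's quasi-likelihood test fitted on all genes of the 2 groups. Benjamini-Hochberg adjusted p-values over all genes tested are given beside it. Comparisons that share a group are not independent of one another. Where groups are said not to overlap, this describes their rats only, since the share of all genes without overlap was not counted.

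In male rats, Per1, the rapidly induced repressor of the loop, was higher in the FIDch group than in each of the other 3 groups. Its level in the 4 FIDch rats was 82.11, 92.34, 70.17 and 76.43 CPM. The IS rats had 55.18, 54.83, 63.98 and 70.8 CPM. The ISch rats had 55.02, 54.36, 66.48 and 71.96 CPM. The FID rats had 61.97, 54.09, 58.03 and 60.9 CPM, so that every FIDch rat lay above every FID rat, while the lowest FIDch rat lay just below the highest IS and ISch rats.

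Against FID, the question is what choline did on the iron-deficient background, and Per1 rose by a log2 fold change of 0.43 (SE 0.0852, adjusted p = 0.0347). Per1 was called in all 8 fits that left out 1 of these rats (0.37 to 0.50), with adjusted p from 0.0335 to 0.137, under 0.05 in 1 of the 8 and at 0.0553 without FIDch replicate 2. Per2, the PER protein gene with a D-box in the window shown above, was higher as well, at 64.77, 78.9, 65.53 and 69.32 CPM in FIDch and 56.88, 53.04, 62.97 and 66.19 CPM in FID. The 2 groups overlapped, and the log2 fold change of Per2 was 0.20 (SE 0.0871, adjusted p = 0.244 in edgeR's quasi-likelihood test). It was not called without FID replicate 1 (0.18), FID replicate 2 (0.15), FIDch replicate 2 (0.15) or FIDch replicate 4 (0.21). Nr1d2, which encodes REV-ERBβ, a repressor of Arntl, was lower, at 74.9, 99.33, 82.3 and 78.35 CPM against 87.86, 100.2, 95.22 and 110.5 CPM. Here too the groups overlapped, with a log2 fold change of -0.25 (SE 0.0921, adjusted p = 0.186 in edgeR's quasi-likelihood test) that was not called without FID replicate 4 (-0.19), FIDch replicate 1 (-0.19) or FIDch replicate 4 (-0.22). In all, 3 of 10 members were called in this comparison, 1 of them by adjusted p, beside 13% and 1.28% of 13945 genes. The FID library with choroid plexus markers at 408.3 CPM stood in this comparison. The lowest FID library had 6.944 CPM of these markers, against at most 4.757 CPM in FIDch. Ttr, the main transcript of that tissue, differed by -6.25 (log2 fold change, SE 1.69).

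Against IS, which sets both the early iron deficiency and the choline against the control diet, Per1 in male FIDch rats was higher by 0.39 (log2, SE 0.104, adjusted p = 0.31 in edgeR's quasi-likelihood test). It was the 1 member called of 10, beside 6.12% of 13693 genes, and 0.131% of genes passed by adjusted p. Without FIDch replicate 2, Nr1d2 was called as well (-0.20), and Per1 itself stood at 0.32.

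Against ISch, the difference of iron status under choline, Per1 was higher by 0.36 (log2, SE 0.0991, adjusted p = 0.169 in edgeR's quasi-likelihood test). Without the 3 libraries of the other name form it was 0.14 and no longer called, and these libraries held the 2 lowest ISch rats and the highest FIDch rat. Nr1d2 was then called instead (-0.22), beside 10.6% of genes. Clock, which encodes the DNA-binding partner of BMAL1, was lower, at 80.34, 96.81, 82.63 and 90.5 CPM in FIDch against 119, 102.8, 98.08 and 91.42 CPM in ISch. Its groups overlapped, and the log2 fold change was -0.24 (SE 0.0839, adjusted p = 0.245 in edgeR's quasi-likelihood test). The call of Clock was lost without ISch replicate 1 (-0.16), without FIDch replicate 1 (-0.19) and without the 3 libraries (-0.16). These 2 members of 10 stood beside 8.12% of 13958 genes called, and none passed by adjusted p, beside 0.043%. Cry2, which encodes a repressor of CLOCK and BMAL1, did not overlap between these groups (159.8 to 175.3 against 140.5 to 159.3 CPM) but differed by 0.16 (log2, SE 0.0537), under the fold of the criterion. The rats left without the 3 libraries, 3 FIDch and 2 ISch, did not overlap either, which so few rats can do readily. They lay as close as 159.8 and 159.3 CPM.

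No member was called between male ISch and IS or between male FID and IS by edgeR's quasi-likelihood test, and none had an unadjusted p under 0.05 in either. DESeq2 called 0 as well. Clock was called in ISch without ISch replicate 4 (0.23). The log2 fold changes of the 10 members ran from -0.07 to 0.18 in ISch and from -0.16 to 0.12 in FID. Of all genes, 8.06% and 4.62% met the criterion in these 2 comparisons, and 0.208% and 0% passed by adjusted p.

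In female rats the pattern of Per1 over the groups differed from that in males, with the highest level in ISch and the lowest in FID. ISch rats had 85.32, 81.38, 90.67 and 80.37 CPM. IS rats had 59.68, 55.4, 58.85 and 74.51 CPM. FID rats had 51.28, 52.95, 52.32 and 53.7 CPM, a narrow range wholly below the IS rats, and FIDch rats had 61.12, 51, 53.13 and 72.87 CPM, spread over the ranges of the IS and FID rats.

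Choline on the iron-sufficient background (ISch against IS) went with 2 members called of 10, both also by adjusted p, beside 10.3% and 2.54% of 14466 genes. Per1 was higher in ISch by 0.44 (log2, SE 0.0847, adjusted p = 0.024), without overlap between the groups. Per3, a PER family member with a smaller part in the core loop, had 30.41, 35.63, 35.07 and 33 CPM in ISch and 28.04, 27.18, 26.02 and 27.2 CPM in IS. Every ISch rat lay above every IS rat, and Per3 was higher by 0.30 (log2, SE 0.0602, adjusted p = 0.026). Both were called in all 8 fits without 1 rat, with adjusted p from 0.00276 to 0.0708 for Per1 and from 0.0072 to 0.0796 for Per3, under 0.05 in 3 and 1 of them. Cry2 did not overlap either (162.3 to 170.7 against 142.8 to 157 CPM), with a difference of 0.15 (log2, SE 0.0438). Arntl, at 36.44 ± 3.6 CPM in ISch and 31.78 ± 1.48 CPM in IS (SD, n = 4), differed by 0.19 (log2), also under the fold of the criterion, which it passed without IS replicate 2 (0.22), IS replicate 4 (0.21) or ISch replicate 3 (0.26).

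Early iron deficiency alone (FID against IS) went with 2 members lower and none higher, beside 6.47% of 14632 genes called, and neither passed by adjusted p, beside 0.191%. Per1 was lower by a log2 fold change of -0.24 (SE 0.0779, adjusted p = 0.266 in edgeR's quasi-likelihood test), although without IS replicate 4, the highest of its group, it stood at -0.14 and was not called. Cry1, the other CRY repressor, had 8.662, 8.581, 8.572 and 8.392 CPM in FID against 8.59, 10.36, 10.8 and 9.502 CPM in IS. Cry1 had a log2 fold change of -0.20 (SE 0.0908, adjusted p = 0.439 in edgeR's quasi-likelihood test) with overlapping groups, and was called in 1 of 8 fits that left out a rat, that without IS replicate 1, with -0.26 to -0.15 over the 8. DESeq2 did not call it (-0.20).

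Female FIDch rats set against IS rats had 1 member called, beside 8.98% of 14662 genes, and none by adjusted p, beside 0.907%. Per3, at 31.88, 29.24, 30.04 and 33.97 CPM in FIDch, was above every IS rat, by 0.21 (log2, SE 0.0624, adjusted p = 0.19 in edgeR's quasi-likelihood test). It fell under the fold of the criterion without IS replicate 3 (0.19) and without FIDch replicate 4 (0.16). Nr1d1 was close to the criterion in this comparison, at 91.92 ± 6 CPM in FIDch and 80.13 ± 4.41 CPM in IS (SD, n = 4), a difference of 0.20 that did not exceed the fold required but did so without IS replicate 4 (0.24), FIDch replicate 3 (0.23) or FIDch replicate 4 (0.21).

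Per2 had its lowest female level in the FIDch rats. It had 50.42, 45.76, 43.31 and 49.6 CPM in FIDch, 54.74, 52.74, 52.85 and 58.42 CPM in FID and 54.32, 58.69, 58.45 and 51.82 CPM in ISch. Every FIDch rat lay below every FID rat and every ISch rat, while the IS rats, from 47.65 to 53.98 CPM, overlapped them. Against FID the log2 fold change of Per2 was -0.21 (SE 0.0632, adjusted p = 0.112 in edgeR's quasi-likelihood test), the 1 member called of 10 beside 12.7% of 14680 genes, with 2.28% of genes passing by adjusted p. It fell under the fold of the criterion without FID replicate 4 (-0.17), FIDch replicate 2 (-0.20) or FIDch replicate 3 (-0.17). Per1 was called in this comparison without FIDch replicate 2 (0.25) or FIDch replicate 3 (0.23). Against ISch Per2 was at -0.24 (SE 0.0672, adjusted p = 0.556 in edgeR's quasi-likelihood test), and without FIDch replicate 3 (-0.20) it fell under the fold and was not called. Per1 was lower than in ISch by a log2 fold change of -0.50 (SE 0.104, adjusted p = 0.44 in edgeR's quasi-likelihood test), again without overlap. Per1 was called in all 8 fits without 1 rat (-0.62 to -0.43). Its adjusted p there ran from 0.0212 to 0.858, under 0.05 in 1 of the 8. Per1 and Per2 were the 2 members called of 10 against ISch, beside 4.57% of 14521 genes, with 0.00689% of genes passing by adjusted p. Cry2 was called against ISch as well without FIDch replicate 4 (-0.22).

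**Figure D2:**
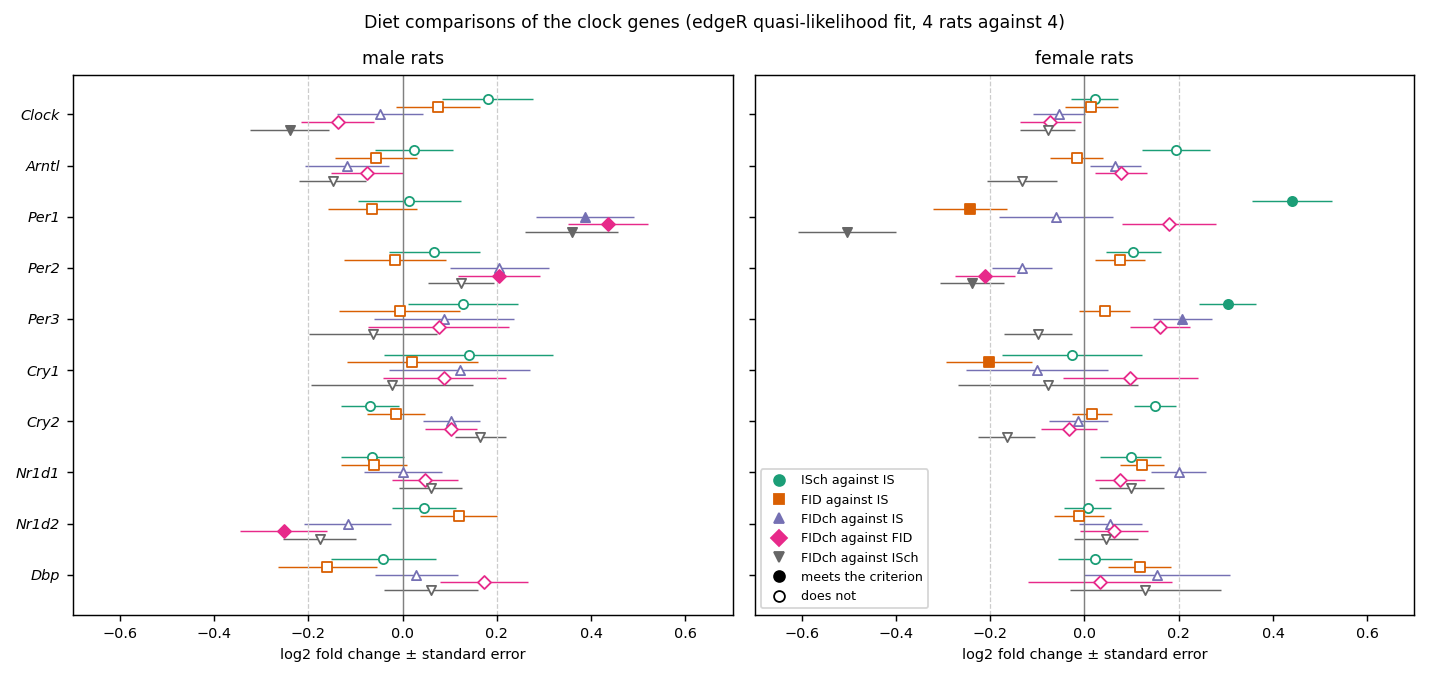
Log2 fold change of each clock gene (x axis, with its standard error) in the 5 diet comparisons of males and of females; filled symbols meet the criterion and dashed lines mark a log2 fold change of 0.2. Per1 is filled in 3 comparisons per sex, upward in all 3 of the males and in both directions among the females.

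When the 4 groups of a sex were tested together, 2 members differed in males at an unadjusted p under 0.05, beside 14.3% of 14314 genes, and 6 in females, beside 22.5% of 14975 genes. None of the male members and 2 of the female members passed the adjusted threshold, which 0.748% and 5.34% of genes passed. In males these were Per1 (adjusted p = 0.101) and Cry2 (adjusted p = 0.338). Cry2 in males was not past the threshold without IS replicate 2 (adjusted p = 0.375), ISch replicate 1 (0.537), ISch replicate 2 (0.449), FIDch replicate 1 (0.56), FIDch replicate 2 (0.396) or FIDch replicate 3 (0.44), nor without the 3 libraries of the other name form (adjusted p = 0.74). Without these Nr1d2 passed beside Per1 (adjusted p = 0.28 and 0.254 in edgeR's quasi-likelihood F-test). In females they were Per1 (adjusted p = 0.00289), Per3 (adjusted p = 0.0128), Per2 (0.0734), Arntl (0.127), Cry2 (0.131) and Nr1d1 (0.165), all from edgeR's quasi-likelihood F-test. The unadjusted call of Arntl in females was lost without ISch replicate 2 (adjusted p = 0.316) or 4 (adjusted p = 0.326). That of Cry2 was lost without ISch replicate 1 (adjusted p = 0.203), 3 (adjusted p = 0.292) or 4 (adjusted p = 0.282). Nr1d1 lost it without IS replicate 1 (adjusted p = 0.268), 2 (adjusted p = 0.274) or 3 (adjusted p = 0.294) or without FIDch replicate 1 (adjusted p = 0.29) or 2 (adjusted p = 0.286). Clock and Arntl, the positive arm of the loop, had female group means of 83.91 to 88.67 CPM and 31.5 to 36.44 CPM.

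Whether the choline difference depended on iron status was tested as the interaction, FIDch minus FID less ISch minus IS. In males 4 members had an unadjusted p under 0.05, beside 15.4% of 14314 genes, and none passed the adjusted threshold, which 0.00699% of genes did. The interaction was positive for Per1 (log2 0.43, SE 0.147) and Cry2 (0.18, SE 0.0786) and negative for Clock (-0.31, SE 0.131) and Nr1d2 (-0.29, SE 0.119). Without the 3 libraries of the other name form, Nr1d2 (-0.35) alone of the 4 was left, while Per1 stood at 0.20, Clock at -0.25 and Cry2 at 0.10. Clock was lost without IS replicate 1 (-0.23), ISch replicate 1 (-0.24), FID replicate 4 (-0.28), FIDch replicate 1 (-0.27) or FIDch replicate 3 (-0.28). Cry2 was lost without IS replicate 4 (0.15), ISch replicate 1 (0.14), FID replicate 1 (0.15) or FIDch replicate 1 (0.17). Nr1d2 was lost without IS replicate 4 (-0.26), ISch replicate 2 (-0.25), FID replicate 4 (-0.23), FIDch replicate 1 (-0.24) or FIDch replicate 4 (-0.26). Per1 alone among these 4 was past the unadjusted threshold in all 16 fits without 1 male rat (0.35 to 0.50). In females 2 members passed unadjusted, beside 9.18% of 14975 genes, and none after adjustment, beside 0.00668%. Both interactions were negative, Per2 with -0.31 (SE 0.0859, adjusted p = 0.283) and Cry2 with -0.18 (SE 0.0726, adjusted p = 0.479) in edgeR's quasi-likelihood test. Per2 held in all 16 fits without 1 female rat, and Cry2 was lost without IS replicate 2 (-0.16), FID replicate 2 (-0.17) or FIDch replicate 3 (-0.15). Per1 passed unadjusted without IS replicate 4 (-0.36) or FIDch replicate 4 (-0.38). Per3 did so without ISch replicate 1 (-0.18) or FIDch replicate 4 (-0.19), and Arntl without ISch replicate 3 (-0.18).

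The male and female differences from IS were also set against each other. For ISch the male minus female difference was -0.42 for Per1 (SE 0.149, adjusted p = 0.177) and -0.22 for Cry2 (SE 0.0723, adjusted p = 0.156) in edgeR's quasi-likelihood test, 2 members beside 15.5% of 15141 genes (1.28% by adjusted p). For FIDch it was 0.44 for Per1 (SE 0.177, adjusted p = 0.278) and 0.33 for Per2 (SE 0.13, adjusted p = 0.267), beside 13.9% of 15177 genes (0.362% by adjusted p). The difference of Per1 for FIDch was not past the threshold without male FIDch replicate 2 (0.37), female IS replicate 4 (0.34) or female FIDch replicate 2 (0.37). For FID, where Nr1d1 or Dbp passed in 8 of 16 fits without 1 rat, no member passed in edgeR's quasi-likelihood test, beside 8.34% of 15138 genes (0.0396% by adjusted p). Without the 3 male libraries of the other name form, Per1 (-0.27) and Cry2 (-0.16) no longer passed for ISch and Per3 did (-0.34), while for FIDch Per1 was lost (0.37), Per2 passed (0.27) and Per3 (-0.28) and Nr1d2 (-0.26) passed as well. The members that passed there had adjusted p from 0.334 to 0.402 in edgeR's quasi-likelihood test. The share of all genes that passed without these libraries was not counted, so their number cannot be set beside it. Sex coincides with the sequencing batch in all of these.

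The level of Nr1d1, which encodes REV-ERBα, differed between the sexes more than that of any other member, with a median of 209.9 CPM in males and 86.34 CPM in females, a ratio of 2.43. The ratios of the other 9 members lay between 1.02 for Cry2 and 1.52 for Per3. In RefSeq Nr1d1 overlaps Thra, a thyroid hormone receptor gene on the opposite strand, and the library kit does not mark strand, so reads in the shared stretch cannot be assigned and the count of Nr1d1 is uncertain. Thra itself had 638.6 CPM in males and 593.7 CPM in females (ratio 1.08). Cry1 overlaps a second protein-coding gene model in the same annotation, and Clock, Per2 and Cry2 overlap lncRNA models. Sex, batch and kit cannot be told apart in these ratios. Outside the members, the heat shock gene Hspa8 had at most 696 counts in any male library and up to 31241 in a female library. Whether reads were counted with the same settings in the 2 tables is not given in the sources used here, and its part in the ratios was not tested.

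The other genes of the pathway were read from a list of 20 that holds further activators (Npas2, Rorb), D-box factors (Hlf, Tef, Nfil3), kinases (Csnk1d, Csnk1e, Gsk3b) and a ubiquitin ligase part (Fbxl21), of which 18 were tested in each comparison. Arntl2, with at most 13 counts in any library, was not. Females had most of the calls. In ISch against IS 3 of 18 were higher: Nfil3, the repressor that competes with DBP at D-boxes (log2 fold change 0.47, adjusted p = 0.0427), Rorb (0.32) and Hlf (0.24). The levels of Nfil3 were 8.224 ± 1.11 CPM in the IS rats, 11.39 ± 0.452 CPM under choline, 6.841 ± 0.684 CPM after early iron deficiency and 10.35 ± 1.04 CPM after both (SD, n = 4). Nfil3 was lower in female FID than in IS (-0.26), the 1 call of 18, and higher in FIDch than in FID (0.59, adjusted p = 0.024 in edgeR's quasi-likelihood test) and than in IS (0.33). In FIDch against FID 3 others were lower: Bhlhe40, an E-box repressor (-0.38), Gsk3b (-0.29) and Npas2, a relative of Clock (-0.24). Against IS, Bhlhe40 (-0.29) and Fbxl21 (-0.23) were lower in FIDch. Among the males 1 call was made in the 5 comparisons, Timeless, lower in FID than in IS (-0.57), beside 4.62% of all genes. Timeless had at most 40 counts in any male library and an adjusted p of 0.786 in edgeR's quasi-likelihood test. Without the 3 libraries of the other name form, Nfil3 was higher in male ISch than in IS (0.54), and Gsk3b (-0.23) and Bhlhe40 (-0.22) were lower in FIDch than in ISch. No call passed by adjusted p but those of Nfil3 in female ISch against IS and in FIDch against FID. Of all genes, 10.3% were called in female ISch against IS and 6.47% in FID against IS. In female FIDch it was 8.98% against IS and 12.7% against FID. The median log2 fold change of the 18 genes lay between -0.10 and 0.06 in the 10 comparisons, and that of all genes between -0.01 and 0.01.

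Because glucocorticoids and neuronal activity switch Per1 on, 10 glucocorticoid-responsive and 11 immediate early genes were read beside it. In the male comparisons where Per1 was higher, glucocorticoid-responsive genes called were all higher. Against ISch these were 6 of 10: Mt2A (0.57), Nfkbia (0.53), Sgk1 (0.52), Ddit4 (0.24), Tsc22d3 (0.21) and Fkbp5 (0.21). Against IS they were Sgk1 (0.42) and Klf9 (0.23), and against FID Sgk1 (0.46) and Ddit4 (0.38). Of all genes, 8.12% were called against ISch, 6.12% against IS and 13% against FID. No gene of either list passed by adjusted p in these comparisons. The median log2 fold change of the 10 genes was 0.23, 0.16 and 0.13 in these comparisons. Of the 11 immediate early genes, Npas4 alone met the criterion in these 3 male comparisons, lower in FIDch than in FID (-0.63). These counts rested in part on the 3 libraries of the other name form. Without them Mt2A (0.37) was the 1 glucocorticoid-responsive gene called against ISch, with a median of 0.12 over the list, none was called against IS, and Ddit4 (0.31) alone was called against FID. In the same fit against ISch, 8 of 11 immediate early genes were called lower in FIDch, led by Npas4 (-0.96), Fos (-0.78) and Egr2 (-0.57), with a median of -0.30, beside 10.6% of 14156 genes called and with no adjusted p under 0.0647 among them. In male ISch against IS, where Per1 was not called (0.01), Mt2A was lower (-0.46), beside 8.06% of all genes. Without the 3 libraries Mt2A was not called (-0.23), and Btg2, an immediate early gene, was higher (0.45), beside 4.81%. No gene of either list was called in male FID against IS, beside 4.62% of all genes.

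In females, where Per1 was lower in FID than in IS, 6 of 10 glucocorticoid-responsive genes were lower too, Sgk1 (-0.54), Ddit4 (-0.52, adjusted p = 0.0119), Nfkbia (-0.46), Tsc22d3 (-0.32), Errfi1 (-0.26) and Fkbp5 (-0.23), with a median of -0.24 over the list. Of the immediate early genes 5 were higher there, led by Npas4 (1.01), and Nr4a1 was lower (-0.27). In ISch against IS, where Per1 was higher, 6 of 11 immediate early genes were higher: Egr2 (1.33, adjusted p = 0.000324), Egr4 (0.61), Egr1 (0.46, adjusted p = 0.0114), Nr4a1 (0.44, adjusted p = 0.0405 in edgeR's quasi-likelihood test), Arc (0.41) and Junb (0.37). Mt2A (0.55) was the 1 glucocorticoid-responsive gene called there, and the list's median was 0.01. In FIDch against ISch 5 immediate early genes were lower, Egr2 (-1.02), Nr4a1 (-0.61), Fosb (-0.55), Egr1 (-0.51) and Egr4 (-0.48), and the glucocorticoid-responsive genes had a median of -0.19. In FIDch against FID, where Per1 was not called (0.18), Mt2A (0.48), Tsc22d3 (0.23) and Sgk1 (0.22) were higher and Fos (-0.69), Ier2 (-0.56) and Egr1 (-0.29) lower. In FIDch against IS Per1 was not called either (-0.06), while Sgk1 was lower (-0.32) and Npas4 higher (0.60). Of 7 temperature-responsive genes none was called in males, and in females the cold-induced Rbm3 was lower in ISch (-0.46) and FID (-0.36) than in IS, Dnajb1 was higher in ISch than in IS (0.26) and Hspa5 was higher in FIDch than in FID (0.23). Of all genes, 6.47% were called in female FID against IS and 10.3% in ISch against IS. In female FIDch it was 4.57% against ISch, 12.7% against FID and 8.98% against IS. Of the female calls given here without an adjusted p, only Ier2 passed by it (adjusted p = 0.0382 in edgeR's quasi-likelihood test). The part of these processes in the Per1 differences was not tested.

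**Figure D3:**
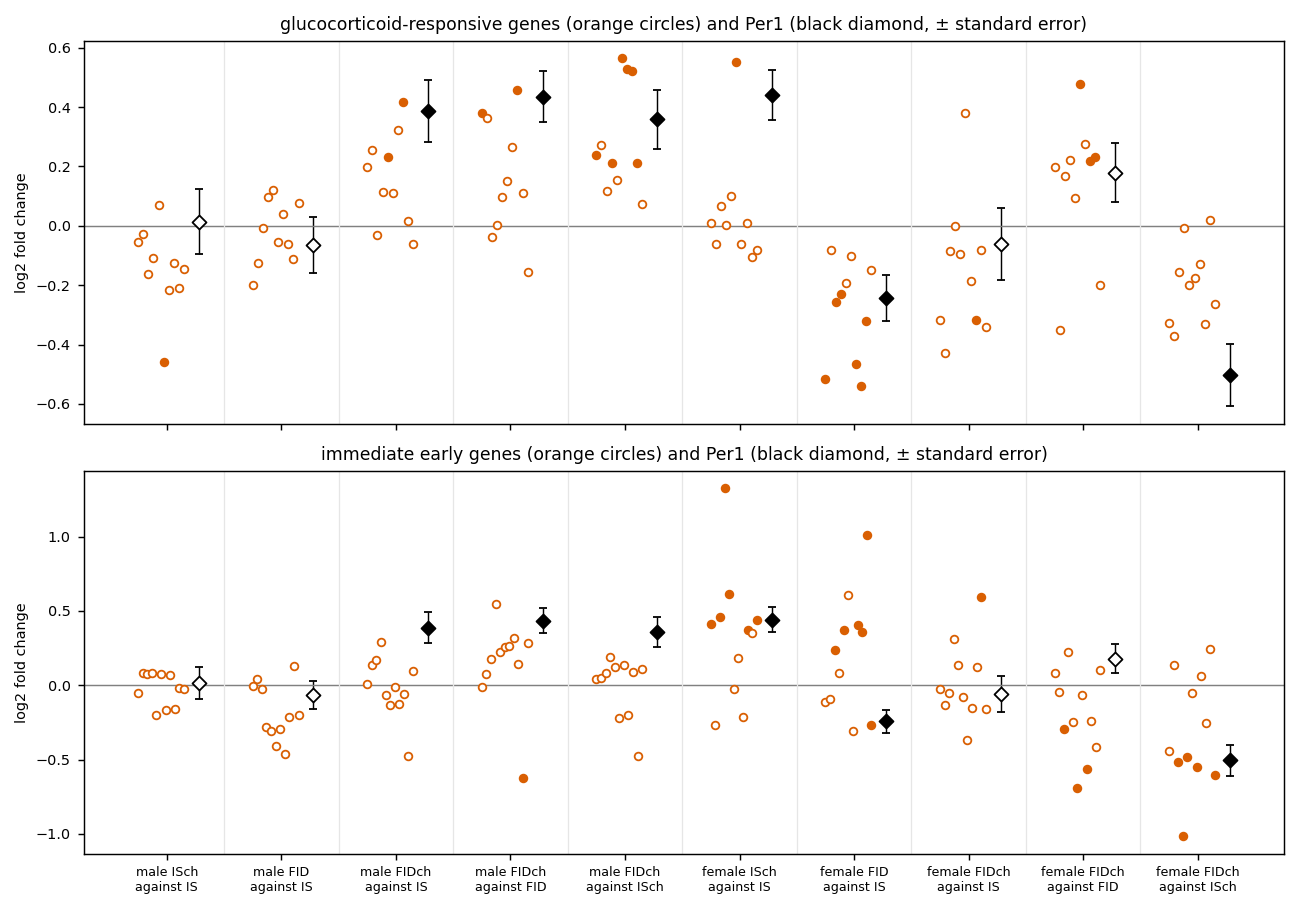
Log2 fold change (y axis) of 10 glucocorticoid-responsive genes (upper panel) and 11 immediate early genes (lower panel), orange circles, beside Per1, black diamond with its standard error, in the 10 diet comparisons (x axis). Filled symbols meet the criterion. In male FIDch against ISch 6 upper circles are filled above 0 (1 without the 3 libraries of the other name form), in female FID against IS 6 are filled below 0, and in female ISch against IS 6 lower circles are filled above 0.

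Cell-type markers also moved in some comparisons. Of the genes on the 10 lists of cell-type and region markers that were tested, 11 of 48 met the criterion in male FIDch against FID, beside 13% of all genes. In the other male comparisons it was 3 of 48 in ISch against IS (8.06% of all genes), 5 of 48 in FID against IS (4.62%), 0 of 48 in FIDch against IS (6.12%) and 5 of 48 in FIDch against ISch (8.12%). In females it was 11 of 52 in FIDch against FID (12.7%), 7 of 51 in ISch against IS (10.3%), 2 of 51 in FID against IS (6.47%), 6 of 51 in FIDch against IS (8.98%) and 4 of 51 in FIDch against ISch (4.57%). In female ISch rats the 7 were Prox1, a dentate granule cell marker (0.39, adjusted p = 0.0227), Aldh1l1, an astrocyte marker (0.36, adjusted p = 0.0215 in edgeR's quasi-likelihood test), and a pair of hemoglobin gene entries named Hba-a2 (0.52 and 0.50), all higher, and the CA3 marker Grik4 (-0.23) and the microglial P2ry12 (-0.41) and Cx3cr1 (-0.23), lower. Prox1 and Aldh1l1 were also higher in female FIDch than in IS (0.30 and 0.28) and than in FID (0.39 and 0.36). Cx3cr1 was lower in both comparisons (-0.28 and -0.32), and the others of the 7 were called in neither. Markers of neighbouring regions were among the calls. Slc17a6, a glutamate transporter of thalamus, and Drd1, a dopamine receptor of striatum, were the 2 called in female FID against IS (0.70 and 0.67), both lower in FIDch than in FID in females (-0.71 and -0.42) and in males (-0.46 and -0.47). Slc17a6 was also lower in male FIDch than in ISch (-0.57). Lef1, on the same thalamus list, was higher in male FIDch than in FID (0.35) and than in ISch (0.30). The median log2 fold change of the thalamus list was 0.24 and 0.15 in these male comparisons. That of the striatum list was -0.02 in male FIDch against FID. In females the thalamus and striatum medians were 0.07 and 0.16 in FID against IS, and -0.205 and -0.18 in FIDch against FID. In FIDch against FID the astrocyte marker Aqp4 was higher in females (0.30) and lower in males (-0.27), where the myelin gene Mbp was higher (0.29). In that female comparison 4 of 52 markers passed by adjusted p, beside 2.28% of all genes. They were Prox1 (adjusted p = 0.00559), Slc17a6 (0.0145), Aqp4 (0.024) and Aldh1l1 (0.0346) in edgeR's quasi-likelihood test. The summed hippocampal neuron markers ran from 1248 to 1579 CPM in these ISch rats and from 1199 to 1588 CPM in the IS rats. Their part in the clock gene differences was not tested.

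Relations between members across rats were read from log2 CPM over the 16 libraries of a sex, in 45 pairs per sex with p-values from 100000 permutations adjusted over all 90. In females 1 pair passed, and in males 3. Per1 and Cry2 passed in both: Pearson's r was 0.83 in females (permutation p = 0.00013, adjusted p = 0.00585) with Spearman's rho 0.73 (permutation p = 0.00212, adjusted p = 0.0636), and r was 0.72 in males (permutation p = 0.00188, adjusted p = 0.0423) with rho 0.60 (permutation p = 0.0153, adjusted p = 0.197). Without the 2 libraries farthest from the median of Per1, r was 0.75 in females and 0.56 in males, with adjusted permutation p of 0.112 and 0.255. On deviations from the group means r was 0.80 and 0.55 (adjusted permutation p = 0.136 and 0.356). In males Per1 also ran with Per2, with r 0.72 (permutation p = 0.00143, adjusted p = 0.0423) and rho 0.73 (permutation p = 0.00208, adjusted p = 0.0636), 0.63 without the 2 farthest libraries and 0.58 within groups. Clock and Nr1d1 ran in opposite directions in males, with r -0.79 (permutation p = 6e-05, adjusted p = 0.0054) and rho -0.74 (permutation p = 0.00131, adjusted p = 0.0636). That relation was -0.72 without the 2 libraries farthest from the median of Clock (adjusted permutation p = 0.112) and -0.83 within groups (adjusted permutation p = 0.0018), and r was -0.09 in females. Without the 3 libraries of the other name form it was -0.81 (adjusted permutation p = 0.0527). The count of Nr1d1 may hold reads of Thra, and r between these 2 genes was 0.66 in males (permutation p = 0.00501, adjusted p = 0.01) with rho 0.49 (permutation p = 0.0542, adjusted p = 0.108), and 0.27 in females (permutation p = 0.316, adjusted p = 0.316) with rho 0.09 (permutation p = 0.754, adjusted p = 0.754), adjusted over the 2 sexes. The male r fell to 0.24 without the 2 libraries farthest from the median of Nr1d1 and so rests on those. The part of Thra in the relation was not tested. No pair passed by Spearman's rho or without the 2 farthest libraries, and none of the male pairs passed without the 3 libraries of the other name form. Arntl and Dbp had no pair that passed.

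**Figure D4:**
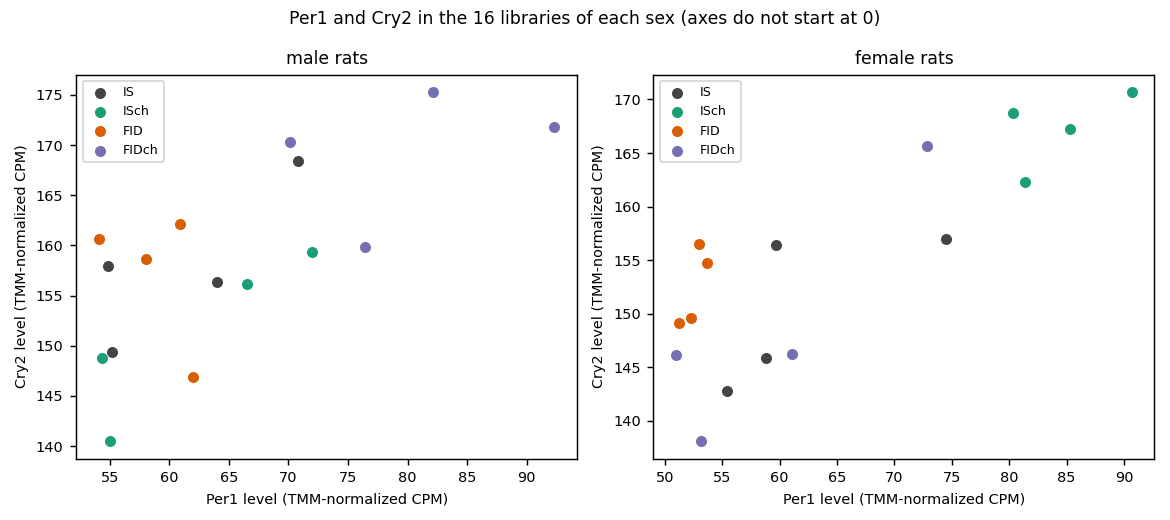
Cry2 level against Per1 level (both TMM-normalized CPM, axes not from 0) in the 16 male and 16 female libraries, colored by diet group. Rats with more Per1 tended to have more Cry2 in both sexes. The female ISch rats lie at the upper right, and so do most male FIDch rats, with FIDch replicate 4 at 159.8 CPM of Cry2.

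As a description, the genes most like each member were those with the highest lower value of the male and the female r among 12630 genes. For Per1 they were Dnajb5 (0.82 in males and 0.80 in females), Elmsan1 (0.83 and 0.80) and Grasp (0.78 and 0.73). For Cry2 they were Cx3cl1 (0.73 and 0.74), Per1 and the immediate early gene Egr1 (0.68 and 0.75). Clock ran most closely with Adam22 (0.86 and 0.86), Cep350 and Rictor, Arntl with Mex3c, Arl4d and Otud1, and Nr1d1 with Gdap1l1, Eef1a2 and Hebp1. Per2 went with Mast2, Nckap5l and Tacc1, and Per3 with Zfhx4, Lmln and Cblb. Dbp went with Rpsa, Mrps28 and Ndufa6, Nr1d2 with Smc6, Tmed2 and Iqck, and Cry1, whose likeness was the weakest, with Rph3al, Dynlrb2 and Sat2 (0.54 and 0.65 for Rph3al). Cry2 was the 1 member with another member among its 3, and libraries of a sex share their batch and diet groups in all of these values.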

How the data were processed

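RNA from hippocampus was made into TruSeq RNA v2 libraries, which do not mark strand, and the 2 deposited tables, 1 per sex, hold raw counts per gene. Per the labels, the authors used FastQC, Trimmomatic, HISAT2, featureCounts (Subread) and Rnor_6.0, and the treatment of multi-mapping reads is not given in the sources used here. Groups came from the labels. The paper took 1 male per litter in each experiment and its RNA data from an earlier study. The litters of the female rats are not given in the sources used here. The p-values measure the spread between rats. Counts were tested with edgeR 4.0.16 in R 4.3.3 (filterByExpr, TMM, quasi-likelihood) for each pair of groups, for the 4 groups of a sex, for the interaction and for the sex difference, with Benjamini-Hochberg adjustment over all genes tested. The fits were tested on simulated data. CPM on the log2 scale used a prior count of 2, and correlations used 100000 permutations in Python 3.11.15. Alternatives were DESeq2 1.42.0, RLE size factors, all genes with at least 1 count, 1 fit per sex, the replicate number as a block, and leaving out each rat. Replicate libraries differed by more than sampling noise (chi-square per gene 2.02 to 25.2). The pairs with female FIDch replicate 4, which stood in every female FIDch comparison, were at 22.4 to 25.2, and no other pair exceeded 14.3. Named genes were all members, members and listed genes at the criterion, and the 3 genes most like each member. The members and gene lists were chosen with earlier results of these data known.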

Additional observations from a re-analysis of the deposited data

Results flagged for a closer look

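Of 80 groups of 4 rats (10 genes in 8 groups), 2 held a rat far from the other 3, where chance gives about 5% of groups. Clock had 82.64 CPM in female ISch replicate 4, with the next rat of the group at 90.46 CPM. Cry1 had 14.27 CPM in male ISch replicate 1, with the next at 9.258 CPM, and this is 1 of the 3 libraries with a column name of another form.

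Differences between the choline effects on the 2 iron backgrounds, on the log2 scale, stood out in males for Per1 (0.43), Cry2 (0.18), Clock (-0.31) and Nr1d2 (-0.29) and in females for Per2 (-0.31) and Cry2 (-0.18). The sign for Cry2 was opposite in the sexes. Differences between the male and the female effect against IS stood out for Per1 (-0.42) and Cry2 (-0.22) in ISch and for Per1 (0.44) and Per2 (0.33) in FIDch. These were at an unadjusted p under 0.05 in edgeR's quasi-likelihood test, and none passed after adjustment. Sex and sequencing batch cannot be told apart, and the collection time was not tested.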

How the results depend on the processing

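Of 562 alternative fits of single clock genes, 472 stayed on the same side of the threshold. No direction changed in the fits that could show a change. The fits of the 4 groups together give only a p, and the setting by adjusted p reuses the main fit, so neither could change direction. By adjusted p the counts were 0 for male FIDch against IS and against ISch, 1 for male FIDch against FID, 0 for female FID against IS and for female FIDch against IS, FID and ISch, 0 for the 4 male groups and 2 for the 4 female groups. With the replicate block, 2 members (Per1 and Per2) were called in male FIDch against IS and 1 in female FID against IS, and 1 differed between the sexes for FID against IS, as also with RLE size factors (1). The genes gained under the block were Nr1d2 among the 4 male groups, Per1 in the female interaction (-0.28), and Dbp (-0.26) and Nr1d1 (-0.21) in the sex differences for FID and FIDch, and Per2 in male FIDch against FID was lost (adjusted p = 0.359). With RLE the gain was Nr1d1 (-0.18). The replicate numbers share no litter or day in the labels and did not pair the rats (correlations over 0.1 in at most 2 of 4 pairs), and under the replicate block 30 of 32 named results stayed on their side of the threshold. Under the block the adjusted p was 0.133 for Per1 in male FIDch against FID, and 0.0856 for Per1 and 0.124 for Per3 in female ISch against IS. Female FID against IS had 1 member called by DESeq2, with all genes and in 1 fit of the 4 groups, and female FIDch against IS had 2 with all genes, Nr1d1 being gained (0.20). With all genes Cry2 was lost among the 4 male groups (adjusted p = 0.558) and in the male interaction (0.17), and Clock and Nr1d2 were gained among the 4 male groups. DESeq2 gave Per1 an adjusted p of 0.0348 in male FIDch against ISch and 0.00643 in female FIDch against ISch. Without the 3 male libraries of the other name form, a choice made after seeing the data, 2 were called in male FIDch against IS (Per1 and, gained, Nr1d2), 1 against ISch (Nr1d2, with Per1 and Clock lost), 1 in the male interaction (Nr1d2, with Per1, Clock and Cry2 lost) and 1 in the sex difference for ISch (Per3, with Per1 and Cry2 lost). Of the related pairs, 1 male and 0 female passed on deviations from group means, 0 and 0 without the 2 farthest libraries, and 0 male without the 3 libraries.

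Leaving out 1 rat moved the count of members called from 0 to 1 in male ISch against IS, 1 to 2 in male FIDch against IS, 1 to 3 against FID and 1 to 3 against ISch. In females it ran from 2 to 3 in ISch against IS, 0 to 2 in FID against IS, 0 to 2 in FIDch against IS, 0 to 1 against FID and 1 to 3 against ISch. For the 4 groups it ran from 1 to 3 in males and 4 to 6 in females, and for the interaction from 1 to 4 in both sexes. For the sex differences it ran from 2 to 3 in ISch, 0 to 2 in FID and 1 to 3 in FIDch. Where a count moved, the cause was not tested. The smallest male library held 3515806 counts, and Cry1 had 31 to 118 counts per male library.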
